A study of Homo sapiens with 52 samples.

Results

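Chromosome 16 was followed through single KBM7 cells for its contacts with the nuclear lamina. Its members were all 100 kb bins of the deposited table that lie on chromosome 16 of the human genome build hg19 and hold a value in every cell. These were 785 of the 904 bins of the chromosome and 785 of 26584 such bins in all. Chromosome 8 was not analysed here, so it is missing from the other chromosomes and from every count over all measured bins. The choice used position alone, so contact itself played no part in it. A bin was taken as contacted in a cell at a ratio of observed to expected signal (OE) of at least 1.

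KBM7 is an established cell line from a human chronic myeloid leukaemia, and the cells belong to 1 group of clone 14 labelled with a ploidy of 2N, of which 51 were analysed. All carry Dam, a bacterial adenine methyltransferase, fused to Lamin B1, one of the filament proteins that build the lamina, so that DNA near the lamina becomes methylated. All were given 0.5 nM Shield1 15 h before harvest, and single cells were sorted from the smallest 2% among those positive for both Fucci cell cycle markers. The group is 1 clone with no separate cultures named and no cells without the fusion, so the cells count as 1 sample, SDs describe the spread between these cells, and no p-value is given.

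The lamina is a protein mesh under the inner nuclear membrane. Regions that touch it, called lamina-associated domains, are typically long, poor in genes and late replicating, and the genes inside them are mostly weakly expressed. Chromosome 16 is known as a gene-rich chromosome with a large block of heterochromatin beside the centromere on its long arm and many segmental duplications on its short arm. The alpha globin genes lie near the tip of the short arm, and the long arm holds a cluster of cadherin genes, which code for adhesion proteins of the cell surface.

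The values rest on reads recovered from the deposited ratios. Cells held 50978 to 316463 reads in all, with a median of 142540. On chromosome 16, a bin of median expected number (334, against 316 over all bins) reached an OE of 1 with 2.24 reads in cell 9, the shallowest cell, and with 13.98 reads in cell 26, the deepest. A total of 24 measured bins of the chromosome had an expected number under 100. In a further 124 bins every cell had 0 reads, so no expected number could be recovered for them. The 119 bins without a value include an inner stretch of 110 bins from 35300001 to 46300000, called the centromere stretch here, which divides the chromosome into a short arm of 345 measured bins and a long arm of 440.

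Cells 31, 25 and 30 stood apart on this chromosome before any result. Cell 31 had no contact in its 785 bins, where a limit of 3 counts is 0.382% and the upper 95% Wilson limit is 0.487%. Both cover counting error only and treat neighbouring bins as independent, so the true uncertainty is larger. Cell 25 had contact in 0.764% of bins and cell 30 in 1.78%. The next lowest, cell 44, had 7.39%, and all 3 lay under 25% of the mean over cells, a limit set after the shares were seen. On the other chromosomes these 3 cells had contact in 31.8% ± 1.80 of bins (SD, n = 3 cells), against 31.9% ± 3.67 in the other 48. Results that rest on them are given with and without them.

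Contact on chromosome 16 was low and differed widely between cells. It covered 17.7% ± 6.90 of the measured bins (SD, n = 51 cells), against 31.9% ± 3.58 on the other chromosomes together. The spread was not particular to chromosome 16 among single chromosomes. Chromosomes 13, 15 and 21 had larger SDs, of 8.83, 10.3 and 8.49 points, though only 520 of the 1026 bins of chromosome 15 were measured. Those of chromosomes 12 and 18 were 6.83 and 6.80, and the rest had smaller ones. The share ran from 0% in cell 31 through a median of 16.9% to 30.8% in cell 26 (95% Wilson interval 27.7% to 34.1%), with cell 17 next at 30.3% (27.2% to 33.6%). Neighbouring bins vary together, which these intervals ignore, so the true uncertainty is larger. In each of the 51 cells chromosome 16 lay below the other chromosomes of the same cell, by a mean difference of -14.3 percentage points ± 6.43. Without the 3 low cells the share was 18.7% ± 5.61 and the difference was -13.2 points ± 4.99, below in 48 of 48 cells. Among bins with reads in at least 1 cell the difference in all 51 cells was -13.4 points ± 7.59, and 2 cells lay above 0.

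**Figure D1:**
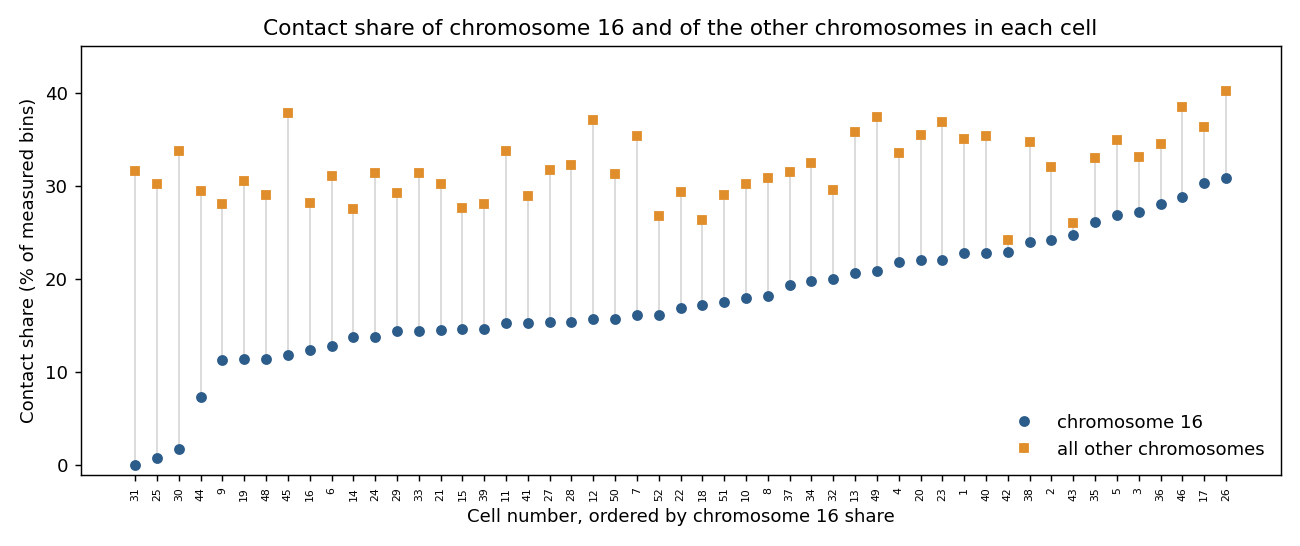
Contact share in percent of measured bins for chromosome 16 (circles) and for all other chromosomes (squares), with 1 pair of points per cell and cells ordered by their chromosome 16 share. Every circle lies below its square, cells 31, 25 and 30 lie near 0 on chromosome 16, and cells 42 and 43 have the smallest gaps, of -1.25 points each.

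Set beside the next smaller chromosomes by number of bins, chromosome 16 was contacted more than chromosome 17 and less than chromosomes 18 and 20. It exceeded chromosome 17, which averaged 9.54%, by 8.11 points ± 6.59, and was above it in 45 of 51 cells. It lay 29.2 points below chromosome 18, which averaged 46.9% (difference -29.2 points ± 7.58, below in 51 of 51 cells). Against chromosome 20, with 22.5%, the difference was -4.82 points ± 8.08, and chromosome 16 was below in 42 cells and above in 9. That difference is smaller than its SD between cells. The next larger chromosomes, 15 and 14, averaged 23.9% ± 10.3 and 30.7% ± 6.27. For chromosome 15 this rests on 520 measured bins of 1026.

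Chromosome 16 was 18th of 20 single chromosomes by contact share and 4th by the density of protein-coding genes in RefSeq (854 genes, or 9.45 per 10 bins of the table). Across the 20 chromosomes, share and gene density were related with r = -0.812 (Pearson) and rho = -0.642 (Spearman). These describe 20 points from the same cells. Gene density was taken over all bins of the table, and share over the measured bins only. The joined chromosomes 9:22 and 22:9 were left out of this ranking.

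The bins of chromosome 16 divided into many that were not contacted and few that were contacted in most cells. Contact was absent from all cells in 435 bins (55.4%), against 38.7% of all measured bins. Of these 435 bins, 124 held no read. The remaining bins had contact in 0 of 51 cells, and for a bin taken alone the limit of 3 counts is 5.88% of cells. This limit treats the cells as independent, although they share a clone, and does not hold for all these bins at once. Contact in at least 20% of cells was found in 221 bins (28.2%), against 42.9% of all bins, and 151 bins (19.2%) lay over 20% and under 80%, against 22.1%.

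At the frequent end, contact reached at least 80% of cells in 70 bins (8.92%), against 20.9% of all bins. At least 90% of cells had contact in 16 bins (2.04%), against 12.8%, and none was contacted in all 51 cells, against 0.824% of all bins. The highest frequency on the chromosome was 92.2%, or 47 of 51 cells. The 3 low cells bound this ceiling, since a bin contacted in each of the other 48 cells reaches at most 94.1% unless a low cell has contact there too. In the other 48 cells alone, 76 bins (9.68%) reached 80% of cells, against 20.3% of all bins, and 45 bins (5.73%) reached 90%, against 11.2%. None was contacted in all 48, against 0.914%.

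The long arm carried most of the contact. On the short arm 8.79% ± 6.91 of bins were contacted, against 24.6% ± 8.46 on the long arm, a difference of -15.8 points ± 7.38 (SD, n = 51 cells). The short arm was lower in 48 cells, higher in cells 9 and 30, and equal in cell 31, which had no contact on either arm. It held 216 bins contacted in no cell (62.6% of its bins), and the long arm 219 (49.8%). Of the 70 frequent bins, 1 lay on the short arm and 69 on the long arm. Cells 27 and 45 had no contact on the short arm, while 27.5% and 21.1% of their long arm bins were contacted.

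Both ends of the chromosome were free of contact calls. In the outermost 5 Mb on each side, no cell had contact in any of the 100 bins, against 20.2% ± 7.91 of the other bins. Among the 100 end bins, 37 were at 0 reads in every cell. The difference was -20.2 points ± 7.91, with the ends lower in 50 cells and cell 31 at 0 on both sides. With ends of 10 Mb, which take in the outermost contacts of both arms, it was -8.96 points ± 6.20.

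The bins beside the centromere stretch did not behave alike on its 2 sides. Within 5 Mb of the stretch, contact covered 15.5% ± 9.32 of bins, against 18.0% ± 6.80 elsewhere, a difference of -2.41 points ± 5.77 with 35 cells below and 15 above. The short arm side had 23.5% ± 12.9, against 7.88% ± 8.49 on the long arm side, and was higher in 47 of 51 cells, by 15.6 points ± 11.1. The short arm side had a median expected number of 132, against 330 on the long arm side, so its calls rest on fewer reads. Among bins with an expected number of at least 100 the difference beside the stretch was -7.99 points ± 6.25. With flanks of 2 Mb the bins beside the stretch were higher than the rest, by 7.58 points ± 10.8.

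Contact fell into 15 domains, defined as at least 3 neighbouring bins each contacted in at least 20% of cells. They are numbered from the short arm end, with 7 on the short arm and 8 on the long arm. Together they hold 209 bins, or 26.6% of the bins measured, while 9.97% of the contacts of the chromosome lay outside them. In domains 59.7% ± 21.2 of bins were contacted per cell, against 2.40% ± 2.27 outside them. The domains were defined from these contact frequencies, so this contrast is a description.

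**Figure D2:**
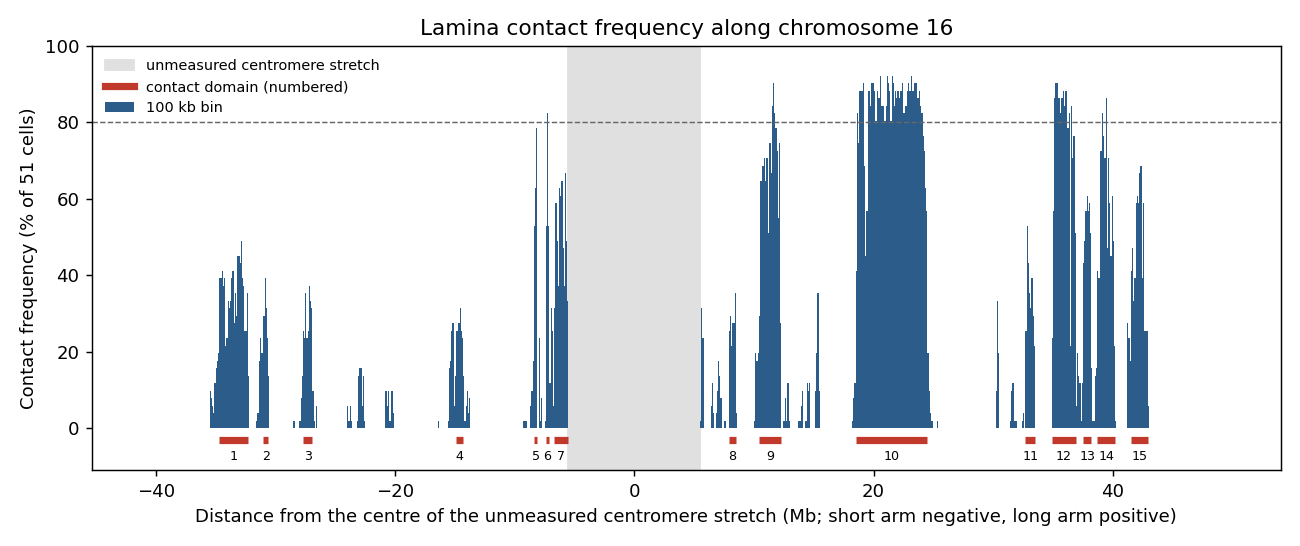
Contact frequency of each measured 100 kb bin in percent of the 51 cells, plotted by distance in Mb from the centre of the unmeasured centromere stretch (grey), with the short arm to the left. Bars below the axis mark the 15 contact domains, and the dashed line marks 80% of cells. Domain 10 forms the long plateau above 80% and both ends of the chromosome stay at 0.

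Domain 10 was the longest, at 6 Mb and 60 bins, from 59300001 to 65300000 (hg19). Its contacted share ran from 0% through a median of 91.7% to 100% over cells, with a mean of 83.2% ± 23.6 (SD, n = 51 cells). It made up 7.64% of the chromosome's measured bins and held 36.0% of its contacts, and 51 of the 70 frequent bins of the chromosome lay in it. A total of 37 cells had contact in at least 80% of its bins, 3 over its whole length and 1, cell 31, in none. In the other 48 cells its share was 88.3% ± 12.5 and the lowest cell had 45.0%. Its mean OE was 2.35 ± 0.924, and 47126 reads fell in it over all cells.

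The borders of domain 10 were crossed within a few bins. On the centromere side the contact frequency was 82.4% in the second bin inside, 41.2% in the outermost bin inside, 11.8% in the first bin outside and 1.96% in the third. On the side of the long arm end it was 62.7% and 56.9% in the last 2 bins inside, 19.6% in the first bin outside and 3.92% in the third. The domain rule itself places the first bin outside under 20% and the last bin inside at 20% or more. In the sixth bin inside, the frequency was 88.2% on the centromere side and 84.3% on the other, where each following bin towards the border was lower. A dip lay inside the domain at 60000001 to 60300000, where the 3 bins had 68.6%, 45.1% and 56.9%. The expected numbers of these bins were 243, 264 and 299, against a median of 330.5 over the domain.

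**Figure D3:**
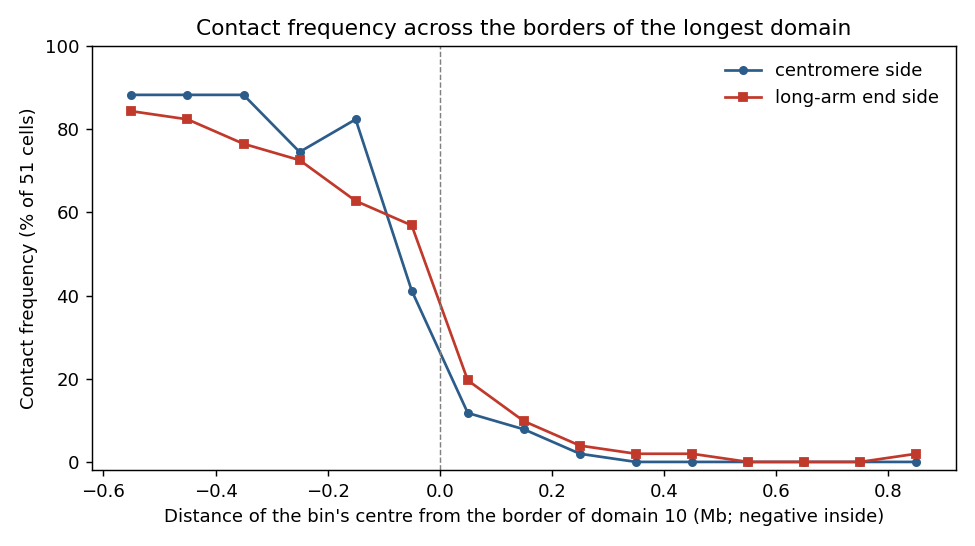
Contact frequency in percent of the 51 cells against the distance in Mb of each bin's centre from the border of domain 10, with negative distances inside the domain. The frequency is 11.8% in the first bin outside on the centromere side (circles) and 19.6% on the side of the long arm end (squares). Both are under 20% by the domain rule, and the third bin is under 4% on both sides.

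By common gene maps this stretch belongs to the gene-poor band 16q21, known for the genes of the type II cadherins CDH8 and CDH11. CDH8 acts in the brain and CDH11 in bone-forming and other connective tissue cells. In RefSeq the pair are neighbours in gene order, at places 582 and 583 of the 854 protein-coding genes of the chromosome, with GOT2, a mitochondrial aspartate aminotransferase, before them and CDH5, the cadherin of blood vessel lining, after them. No hg19 annotation was used here, so no gene was assigned to a bin. Gene positions given for domains come from common maps and were not checked against hg19. The genes named in this account are background, picked after the contact values were seen.

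Domain 12 came closest to domain 10 in frequency. It ran from 75700001 to 77700000, 2 Mb and 20 bins, and its contacted share ran from 0% through a median of 85.0% to 100%, with a mean of 75.1% ± 26.7 (SD, n = 51 cells). It held 13 of the 70 frequent bins, and 36 cells had contact in at least 80% of its length. Its mean OE of 2.38 ± 1.11 was the highest of the 15 domains, and 2 of its bins, at 76000001 to 76200000, reached 90.2% of cells. The textbook position of CNTNAP4, a neuronal adhesion gene, lies here.

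Within domain 12 a single bin broke the plateau. The bin from 77200001 to 77300000 was contacted in 21.6% of cells, while its neighbours were contacted in 82.4% and 84.3%. Its mean OE was 0.594, against 2.41 and 2.70 in the neighbours. Its expected number was 356, so the low frequency does not come with a low expected number. The 2 steps at its borders, of 60.8 and 62.7 points, were the steepest between neighbouring bins of the chromosome. Its frequency also sets the lower limit of the domain, since a value under 20% would have divided domain 12.

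Domain 9, from 51200001 to 53100000, had contact in 66.4% ± 30.3 of its 19 bins, from 0% through a median of 78.9% to 100%. No contact at all was seen in it in 3 cells, and 48 cells had some. All 3 were the low cells, and the lowest share among the other 48 was 5.26%. Its frequency changed along its length, from 27.5% in its lowest bin to 90.2% in its highest, and its last bin, with that lowest value, followed a bin at 74.5%. TOX3, a chromatin protein of neurons and some epithelia, has its textbook position in this stretch.

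Domains 13, 14 and 15 followed domain 12 towards the long arm end, with gaps of 0.5 to 1.3 Mb between them. Domain 14, from 79500001 to 81000000, had contact in 59.6% ± 32.1 of its 15 bins, from 0% through a median of 73.3% to 100%, and 2 of its bins reached 80% of cells. Domain 15, from 82300001 to 83700000, had contact in 46.4% ± 33.8 of its 14 bins, from 0% through a median of 50.0% to 100%. It was the last domain of the long arm, and from 83800001 on no cell had contact. By common gene maps CDH13, the gene of a cadherin anchored in the membrane by a lipid, lies in its range.

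Domain 13, from 78300001 to 79000000, was among the 3 domains whose share varied most between cells. It was contacted in 53.8% ± 37.5 of its 7 bins, from 0% through a median of 57.1% to 100%. A total of 10 cells had contact over its whole length and 8 had none. The textbook position of WWOX, a very long gene for a tumour suppressor oxidoreductase that spans a common fragile site, covers this stretch. MAF, which codes for a leucine zipper transcription factor, follows WWOX directly in RefSeq order.

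On the short arm each bin of the longest domain was contacted in under 50% of cells. Domain 1, from 6100001 to 8500000, covered 2.4 Mb and was contacted in 35.7% ± 35.9 of its 24 bins, from 0% through a median of 25.0% to 100%. None of its bins passed a frequency of 49.0%, and the lowest had 21.6%. In 17 cells it had no contact and in 9 cells at least 80% of it was contacted. Its textbook gene is RBFOX1, a very long gene for a neuronal splicing factor, which in RefSeq order has EEF2KMT before it and TMEM114 after it.

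Domains 2 and 3 were contacted either hardly or almost fully in most cells. Domain 2, from 9800001 to 10200000, had 4 bins and a share of 30.9% ± 41.4, the largest SD of the 15 domains. It was free of contact in 30 cells and wholly contacted in 9. Domain 3, from 13100001 to 13900000, had contact in 29.4% ± 38.0 of its 8 bins, with no contact in 28 cells, contact in at least 80% of it in 7, and values between 20% and 80% in 14. The median share was 0% for both. GRIN2A, a subunit of a glutamate receptor, has its textbook position at domain 2.

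Domain 7 bordered the centromere stretch on the short arm side. From 34100001 to 35300000, it was contacted in 49.8% ± 31.4 of its 12 bins, from 0% through a median of 58.3% to 100%, and only 1 cell was in contact over its whole length. Its median expected number was 217. Domains 5 and 6, of 3 bins each at 32400001 to 32700000 and 33400001 to 33700000, had shares of 64.7% ± 35.5 and 62.7% ± 35.1, above every other domain of the short arm. Their median expected numbers were only 58 and 67, and 500 and 384 reads fell in them over all cells. A call in these bins therefore takes few reads. With all cells thinned to 50978 reads, their shares fell to 50.3% and 45.8%, against 42.2% in domain 7. How far their rank depends on the low expected numbers was not tested. Among bins with an expected number of at least 100, 13 domains were left on the chromosome.

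Domains 4, 8 and 11 had 6 to 8 bins each and were contacted less often, in 26.5% ± 37.1, 27.8% ± 34.4 and 34.8% ± 33.8 of their bins. Over all 15 domains the mean share ran from 26.5% in domain 4 to 83.2% in domain 10. Domain by domain, neighbours in this order such as domains 4, 8, 3 and 2, at 26.5% to 30.9%, differed by less than the spread between cells. Every domain was free of contact in at least 1 cell and wholly contacted in at least 1. With all cells thinned to 50978 reads, the shares of domains 10, 12 and 9 were 78.2%, 70.7% and 62.0%, and those of domains 1, 2 and 3 were 33.6%, 28.4% and 28.9%.

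**Figure D4:**
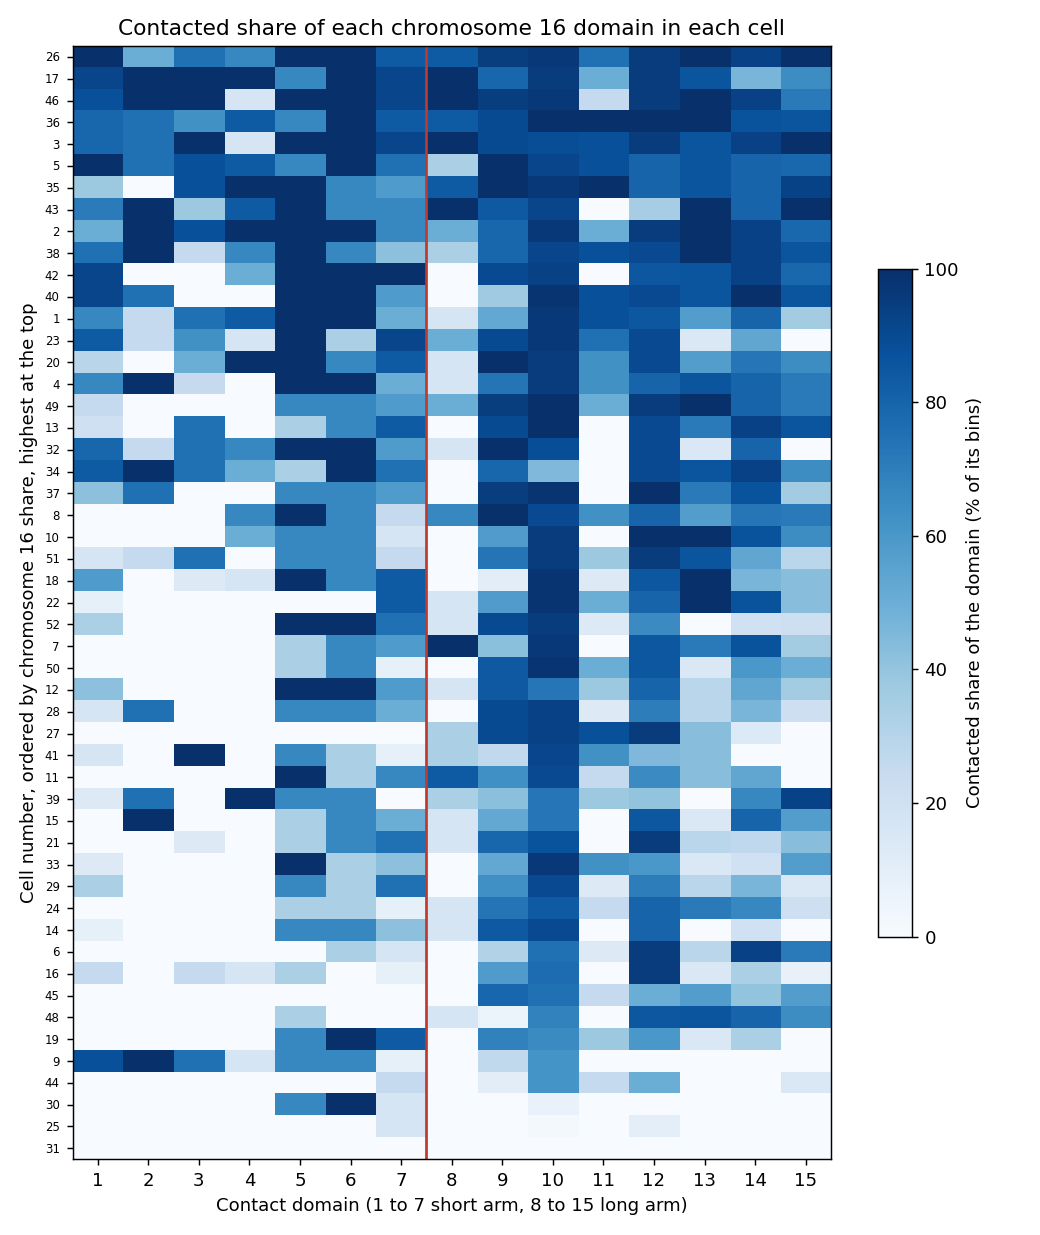
Contacted share of each of the 15 domains (columns, short arm left of the red line) in each of the 51 cells (rows, highest chromosome 16 share at the top), in percent of the domain's bins. Domain 10 is dark in most rows, domains 1 to 4 are blank in many, and the 3 bottom rows, cells 30, 25 and 31, are almost empty.

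Between the domains lay long stretches with hardly any contact. There were 16 runs of at least 10 bins contacted in at most 5% of cells. The longest, from 83800001 to 90300000, held 65 bins up to the last measured bin of the long arm and no contact in any cell. Its highest OE was 0.904, and 22 of its bins held no read. The first 5.3 Mb of the short arm, from 1 to 5300000, held 53 bins and no contact either, with a highest OE of 0.747 and 22 bins without a read. This stretch includes the tip where textbooks place the alpha globin genes, which stand among the first genes of the chromosome in RefSeq, HBA1 at place 11 of 854.

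The second longest such run, from 65500001 to 71000000, followed almost directly on domain 10. Its 55 bins were contacted in 0.178% ± 0.656 (SD, n = 51 cells), with no contact in 47 cells, and its mean OE was 0.0149, against 2.35 in domain 10. Only the bins from 65300001 to 65500000, contacted in 19.6% and 9.80% of cells, lay between them. The longest domain and a stretch of 5.5 Mb with hardly any contact were thus separated by 0.2 Mb.

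In single cells, runs of contact on chromosome 16 were shorter on average than elsewhere, by less than the spread between cells. The mean length of an uninterrupted run of contacted bins was 0.453 Mb ± 0.132 on chromosome 16, against 0.537 Mb ± 0.0793 on the other chromosomes (SD; n = 50 cells for chromosome 16, since cell 31 had no run). Chromosome 16 was shorter in 37 cells and longer in 13, by a mean difference of -0.0835 Mb ± 0.131. Of its 1547 runs, 40.9% were 1 bin long, against 36.0% elsewhere. Runs of at least 1 Mb made up 11.0%, against 16.3% elsewhere, and held 50.2% of the chromosome's contacts.

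Of the 170 runs of at least 1 Mb, 63 (37.1%) overlapped domain 10, a share close to the 36.0% of contacts that lie in it, and 107 did not. The longest covered 6.1 Mb in cell 49, from 59300001 to 65400000, and so took in the whole domain and the bin beyond it. Cells 13 and 36 had a run of 6 Mb that matched the domain from border to border. There were 15 runs of at least 50 bins.

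The strength of signal was highest in the bins contacted most often. In the 70 frequent bins, the median OE of contacted values was 2.71 ± 0.747 (SD, n = 49 cells), against 2.85 ± 0.265 in such bins of the other chromosomes. In bins over 20% and under 80% it was 1.91 ± 0.360, against 1.98 ± 0.152 elsewhere. Where 20% of cells or fewer had contact it was 1.80 ± 0.983 (n = 32 cells), against 1.43 ± 0.120 elsewhere, so the lower classes of chromosome 16 lay within their spread of each other. Frequency and OE come from the same values, so the order of these classes is partly built in. In all 3 classes chromosome 16 differed from the other chromosomes by less than its own SD between cells. Of all OE values of chromosome 16, 66.9% were 0, against 49.6% elsewhere, and 9.94% were at least 2, against 20.3%.

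Contact frequencies along the chromosome were alike in different sets of cells. Contact frequencies of the 785 bins in the 25 cells with odd numbers and in the 26 with even numbers had r = 0.976 (Pearson) and rho = 0.937 (Spearman). The shares of the 15 domains had an r of 0.928 and a rho of 0.911 between these sets. Both are correlations across positions of 1 chromosome, which are not independent.

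The contacted shares of domains tended to vary in the same direction between cells, although many cells had 1 domain of a pair without the other. The contacted shares of domain pairs were correlated over the 51 cells after each cell's share of all measured bins was subtracted. The mean r was 0.434 for the 49 pairs on the same arm, with all 49 above 0, and 0.299 for the 56 pairs on different arms, with all 56 above 0. Without the 3 low cells these means were 0.344 and 0.223, and 49 and 53 pairs lay above 0. Same-arm pairs up to 5 Mb apart averaged 0.525 (15 pairs), and those further apart 0.394 (34 pairs). With no share subtracted the same-arm mean was 0.465, so the subtraction removed little of it. The domains share cells and depth, so these values are a description of these 51 cells.

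**Figure D5:**
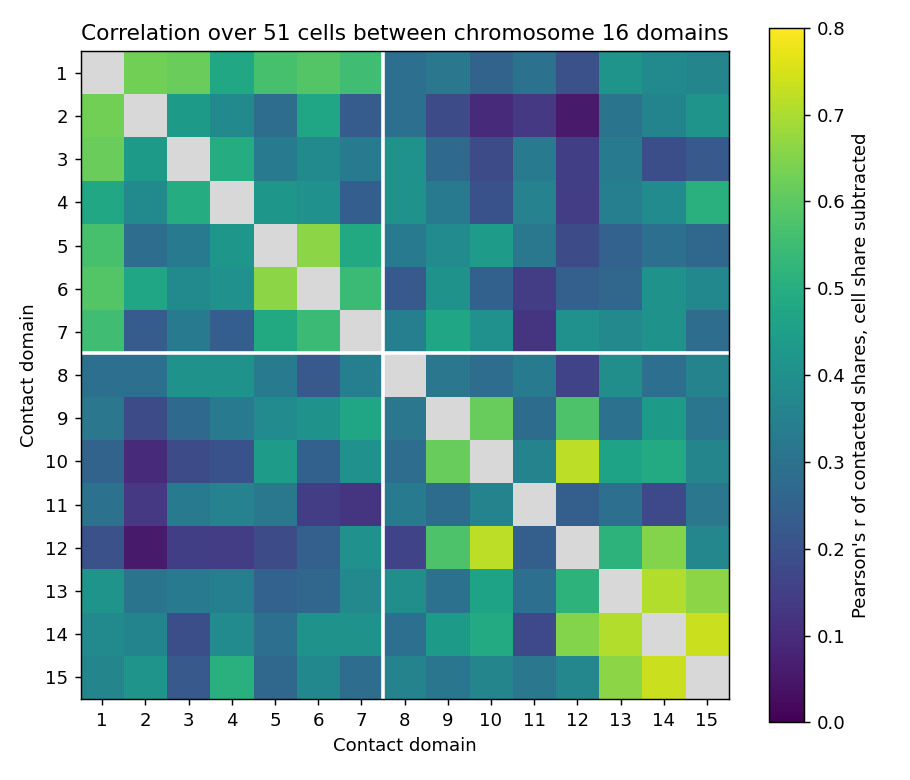
Pearson's r over the 51 cells between the contacted shares of each pair of the 15 domains, after subtraction of each cell's share of all measured bins, with white lines between the arms. The brightest squares are domains 14 and 15 (0.737), 10 and 12 (0.721) and 13 and 14 (0.708), and the darkest is domains 2 and 12 (0.0582).

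The highest correlation was that of neighbouring domains 14 and 15, with r = 0.737 over 51 cells, or 0.692 without the 3 low cells. Both were contacted over at least 50% of their bins in 23 cells and neither was in 15, while 10 cells had domain 14 alone and 3 domain 15 alone. Domains 10 and 12 came next, with r = 0.721, although 10.4 Mb lie between them. Without the 3 low cells this value was 0.334, so much of it rests on those cells. The same held for domains 9 and 10, with 0.614 in all cells and 0.298 without the 3. On the short arm, domains 1 and 2 had r = 0.630, and 0.613 without the 3 low cells.

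The lowest correlation joined the opposite arms. Domains 2 and 12 had r = 0.0582 over 51 cells, and -0.102 without the 3 low cells. Without those cells the lowest pair was domains 2 and 10, at -0.128. Domains 2 and 12 were both contacted over at least 50% of their bins in 14 cells, and neither was in 4. Only domain 2 was so contacted in 3 cells and only domain 12 in 30. Domain 10 likewise was contacted in 30 cells in which domain 1 was not, while the reverse was seen in 1 cell. For domains 8 and 10, on the same arm, both were so contacted in 13 cells, domain 10 alone in 34 and neither in 4. The single cell with domain 1 and not domain 10 was cell 34, with contact in 83.3% of the bins of domain 1 and 45.0% of those of domain 10.

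Bins of intermediate frequency, over 20% and under 80% of cells, had higher mean correlations over cells on chromosome 16 than elsewhere in each distance class examined. On chromosome 16 the mean correlation over cells was 0.529 between adjacent bins (118 pairs), 0.407 at 1 Mb (142 pairs), 0.242 at 5 Mb (231 pairs), 0.152 at 10 Mb (48 pairs) and 0.144 at 50 Mb (1299 pairs). On the other chromosomes it was 0.442, 0.270, 0.132, 0.0926 and 0.0529. Without the 3 low cells the values of chromosome 16 were 0.501, 0.373, 0.197, 0.119 and 0.103, against 0.444, 0.271, 0.134, 0.0945 and 0.0538. The pairs given for 5 and 50 Mb outnumber the 151 such bins of chromosome 16, so these distances stand for classes of some width. Within a class, pairs may lie at different distances on chromosome 16 and elsewhere. Pairs share bins and cells, so the difference between chromosome 16 and the others was not tested.

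Cells with more contact elsewhere tended to have more on chromosome 16. Over the 51 cells, which count as 1 sample, the chromosome 16 share and the share of the other chromosomes had r = 0.388 (Pearson) and rho = 0.435 (Spearman), and r was 0.389 without the 2 cells farthest from the median of the other chromosomes. Among the other 48 cells r was 0.488. The share on chromosome 16 and the reads of the cell had an r of 0.381 (0.307 without the 2 farthest cells) and a rho of 0.392. Short arm and long arm shares had an r of 0.555 (0.531 without the 2 farthest cells) and a rho of 0.593. All 3 relations describe these cells only. The relation between the 2 shares was not taken at equal depth, and the part of depth in it was not tested. Cell 9, the shallowest cell, had contact in 13.6% of short arm bins and 9.55% of long arm bins, with domain 2 wholly contacted and domains 13, 14 and 15 free.

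Cells at the 2 extremes of share differed in how many domains they contacted, which is partly built in, since both come from the same calls. Cells 26 and 17, with the highest shares, had contact in all 15 domains, and 15 and 14 of them were contacted over at least 50% of their bins. Cell 31 had contact in 0 domains, cell 25 in 3 and cell 30 in 4, against 11.8 ± 2.40 in the other 48 cells (SD, n = 48). In cell 30 the 2 domains contacted over at least 50% were those of low expected number, domains 5 and 6.

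In the domains the 3 low cells held few reads. Contact is called from these reads, so this follows in part from how the 3 cells were picked. Reads on chromosome 16 made up 0.0818% of all reads in cell 31, 0.194% in cell 25 and 0.240% in cell 30, against 1.78% ± 0.513 in the other 48 cells. Their totals, of 191899, 124812 and 113522 reads, lay within the range of the other cells. In the 15 domains they held 0.192 to 0.334 reads per 100 of expected number, against 3.45 ± 1.69 in the other 48.

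Reads were few in the low cells outside the domains too. In the chromosome 16 bins contacted in at most 5% of cells, cells 31, 25 and 30 held 9, 14 and 9 reads, against a median of 57 in the other 48 cells. Relative to the same kind of bin on the other chromosomes of the same cell, their reads per 100 of expected number stood at 0.0914, 0.192 and 0.0994, against 0.706 ± 0.436 in the other 48 cells. The lowest of these 48 was 0.155, in cell 24, so the ranges overlap. A chromosome 16 away from the lamina and a chromosome 16 whose DNA was lost or amplified poorly in these cells cannot be told apart from these values.

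Cells this low were few on the chromosomes with more contact. Over the 20 chromosomes and joined chromosomes with a mean share of at least 5%, 9 of 1020 pairs of a cell and a chromosome lay under 25% of that chromosome's mean. These were 3 on chromosome 16, 3 on chromosome 15, 2 on chromosome 17 and 1 on chromosome 21. Chromosome 19 and joined chromosome 22:9, with mean shares of 2.20% and 0.662%, were left out of this tally and had 16 and 22 such cells. The same 3 cells had their next lowest chromosome relative to the mean in chromosome 17, at 0.121, 0.646 and 0.323 times its mean share in cells 31, 25 and 30. On 8 to 11 of the 19 other chromosomes they lay above the mean.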

How the data were processed

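Single-cell DamID of Lamin B1 was performed by the authors in KBM7 cells of clone 14, with 21 PCR extension steps after DpnI digestion and adapter ligation, per the labels' protocols. Cutadapt and Bowtie2 2.1.0 were used with hg19, per the submitters' processing notes. Each deposited value is a ratio, observed over expected signal (OE), for a cell and a 100 kb bin. The make-up of the expected signal and the handling of duplicate reads are not stated in the sources used here. Of 52 labelled cells, cell 47 was not analysed here.

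Each deposited ratio was divided into a whole number of reads, a factor of the cell and a whole expected number of the bin. All values (100%) came out whole within 0.02 reads. The step of each bin was chosen to make its values whole, so this figure is built in and does not test the recovery. The highest ratio of reads to expected number was 1, so a read may be a distinct site. The recovery and the domain rule were tested on simulated data. Reads without molecular identifiers are not independent molecules, so intervals and floors cover counting error only.

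Analyses used Python 3.11.15, numpy 2.4.6, pandas 2.3.3 and scipy 1.17.1. The arms were divided at the longest inner stretch without values. Named regions were the 8 longest domains, the 3 domains of largest SD, the 3 longest runs of at least 10 bins contacted in at most 5% of cells, and runs of at least 3 bins contacted in at least 90%, of which there were 0 (the longest had 2 bins). Named cells were the highest and lowest by chromosome 16 share. Domains 4, 5, 6, 8 and 11, the bins of steps and dips, and the other cells named were chosen after their values were seen. Genes are background only, with order and counts from RefSeq (GRCh38), and sequences were not printed since no hg19 genome was used here. The members, lists and rules were chosen with earlier results of these data known. Alternatives were other OE thresholds, bin sets, cell sets, depths and widths.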

Additional observations from a re-analysis of the deposited data

How the results depend on the processing

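Of 107 alternative values of the main results, 91 moved by less than 1 SD or stayed in the range set for counts, 15 moved and 1 reversed. The SD was taken over cells, or over domain pairs for the same-arm correlation. The reversed value was the difference beside the centromere stretch, 7.58 points with flanks of 2 Mb, where the short arm side has low expected numbers. Its cause was not tested. At an OE of at least 0.5, 12.4% of bins reached 80% of cells and 44.8% had contact in no cell. At an OE of at least 2, the chromosome 16 share was 9.94%, the end difference -11.4 points, and the mean run length 0.286 Mb, with 0.127% of bins at 80% of cells or more, 62.4% in no cell and 15.9% between 20% and 80%. These shifts follow from the threshold. Without bins lacking reads, 47.0% were contacted in no cell and 22.8% lay between 20% and 80%. Bins contacted in no cell made up 60.1% in the even-numbered cells and 48.5% among bins with an expected number of at least 100. Thinning to 50978 reads left 6.24% of bins at 80% of cells or more. The end difference with ends of 10 Mb was -8.96 points. Allowing domains of 1 bin gave 23 domains. At an OE of at least 2, domains 9 and 10 had shares of 34.4% and 58.6%. The other 38 values of named domains moved by less than 1 SD over cells, which is a wide limit for domains. At the threshold of 2, domains 1, 2, 3 and 15 fell from 35.7%, 30.9%, 29.4% and 46.4% to 12.4%, 11.3%, 10.5% and 19.2%.

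Under all alternatives run, chromosome 16 lay below the other chromosomes by -16.2 to -10.4 points and the short arm below the long arm by -18.2 to -11.1 points. The same-arm correlation ran from 0.322 to 0.512. The limit of 3 low cells, the minimum expected number of 100, the thinning of named domains and the classes without the low cells were chosen after the data were seen. No paired analysis was possible because the labels give 1 group, so no groups share replicate numbers. Differences between regions were taken within each cell. Depth limits calls in single bins most in cell 9, at 2.24 reads for an OE of 1.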
